A study of Mus musculus with 11 samples.

Results

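The 35 interferon-stimulated genes described here are transcripts that type I interferon induces in most cell types, from the transcription factors that drive the response (Stat2, Irf7, Irf9) to the antiviral effectors of the Ifit, Oas, Mx and PARP families. They were listed by name, under a rule that uses no measured value, and all 35 were found among the 54418 genes in the count table. Messenger RNA was sequenced from thymocytes of 11 mice of 8 to 12 weeks of age: 4 wild-type (wt) mice, 4 Zmat3-/- mice, which lack the TRP53-induced RNA binding protein ZMAT3, and 3 Puma-/-p21-/-Zmat3-/- (TKO) mice, which in addition lack the pro-apoptotic BH3-only protein PUMA (gene Bbc3) and the cyclin-dependent kinase inhibitor p21 (gene Cdkn1a). TKO mice came from crosses of Zmat3-/- with Puma-/-p21-/- mice, and all mice were on a C57BL/6-WEHI background. Each library was made from a cell suspension of whole thymus, without sorting or treatment, so cells other than thymocytes were not removed. The libraries of wt and TKO mice are described by the study as coming from individual mice, and those of Zmat3-/- mice are taken as such. Labels give neither sex nor litter, and p-values measure only the spread between these samples. Total counts ranged from 17669715 (TKO mouse 2) to 80207003 (TKO mouse 3).

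Type I interferons bind the receptor chains IFNAR1 and IFNAR2, whose kinases JAK1 and TYK2 phosphorylate STAT2. STAT2 and IRF9 belong to a complex called ISGF3, which binds interferon-stimulated response elements (ISRE) in the promoters of its target genes. In the resting thymus, type I and type III interferons made by thymic epithelial cells and plasmacytoid dendritic cells keep a tonic level of this programme, which is strongest in the most mature thymocytes.

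A sequence feature outside the count table was the ISRE core, taken here as GAAA and GAAA with any 2 bases between them and searched on both strands (the reverse is TTTC and TTTC) from 250 bases before to 50 bases after the RefSeq start (GRCm38.p6). Promoters of 26 of the 35 genes were in the RefSeq table, and 14 of these 26 (53.8%) held the core, against 3.99% of all 27025 genes in that table. The core was also in 58.1% of 43 other interferon-stimulated genes and in 90.9% of 11 interferon gamma-responsive genes. A match describes letters in the window. The first 5 sequences below belong to genes described in full further on, and those of Ifit3, Isg15 and Bst2 were added after the values were seen, as genes that ranged over 3.40-fold or more among wt mice. Capitals mark each ISRE core in either orientation, and each sequence runs 5′ to 3′ along the gene's strand.
Ifih1: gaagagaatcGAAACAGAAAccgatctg
Slfn5: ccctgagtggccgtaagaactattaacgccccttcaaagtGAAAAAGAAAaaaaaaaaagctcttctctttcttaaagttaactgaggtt
Rsad2: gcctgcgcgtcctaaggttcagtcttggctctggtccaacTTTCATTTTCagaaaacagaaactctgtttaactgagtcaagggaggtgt
Eif2ak2: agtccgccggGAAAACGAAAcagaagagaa
Ifit3b: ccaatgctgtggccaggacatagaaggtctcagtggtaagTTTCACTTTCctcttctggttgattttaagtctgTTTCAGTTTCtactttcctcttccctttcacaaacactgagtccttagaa
Ifit3: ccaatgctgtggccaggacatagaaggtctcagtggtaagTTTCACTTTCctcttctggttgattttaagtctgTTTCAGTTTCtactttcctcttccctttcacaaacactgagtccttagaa
Isg15: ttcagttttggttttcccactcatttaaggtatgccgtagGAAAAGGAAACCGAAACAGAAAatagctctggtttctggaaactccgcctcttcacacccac
Bst2: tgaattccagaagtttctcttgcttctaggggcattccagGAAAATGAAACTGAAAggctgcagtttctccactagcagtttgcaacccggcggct
These stretches lie on GRCm38.p6 at chr2:62646206-62646233 (Ifih1, minus strand), chr11:82951907-82951996 (Slfn5, plus strand), chr12:26456523-26456612 (Rsad2, minus strand), chr17:78882535-78882564 (Eif2ak2, minus strand), chr19:34607729-34607852 (Ifit3b, plus strand), chr19:34583333-34583456 (Ifit3, plus strand), chr4:156200835-156200936 (Isg15, minus strand) and chr8:71537547-71537642 (Bst2, minus strand). The cores of Ifih1 and Eif2ak2 lay just downstream of the RefSeq start, the others upstream. For 20 of the 28 promoters of the 35 genes, the first 20 bases after that start occurred in an annotated transcript of the gene. Isg15 carried 3 overlapping cores and Bst2 carried 2. The windows of Ifit3 and Ifit3b were the same base for base, and 188 of 218 aligned upstream bases of these neighbouring genes were identical (86.2%).

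The kit did not mark the strand, so reads of Slfn5 and Slfn5os, of Eif2ak2 and Gm26637, and of Dtx3l and Parp9, which overlap, cannot be told apart. Values are in CPM, the count of a gene scaled to a common library size, after TMM normalisation for library composition. The targeted genes were examined first. Zmat3 was at 9.88, 12.2, 26.8 and 26.8 CPM in wt mice 1 to 4, at 5.67, 5.34, 6.42 and 6.85 CPM in Zmat3-/- mice and at 8.05, 7.78 and 8.25 CPM in TKO mice. Every mutant mouse lay below every wt mouse for Zmat3 (as for 6.75% of all genes in Zmat3-/- and 5.16% in TKO mice), although the log2 fold change did not pass the adjusted threshold (-1.64 with adjusted p = 0.0786 in Zmat3-/- and -1.28 with adjusted p = 0.371 in TKO, edgeR quasi-likelihood test). Bbc3 was at 19.4, 20.1, 16.8 and 18.2 CPM in wt, 17.1, 15.3, 16.6 and 19.8 in Zmat3-/- and 12.9, 15.2 and 13.1 in TKO mice. Cdkn1a was at 8.20, 10.4, 3.53 and 4.15 CPM in wt, 8.54, 7.71, 4.77 and 5.15 in Zmat3-/- and 3.52, 3.39 and 2.49 in TKO mice. TKO mice were thus the lowest of the 11 for both genes. For Cdkn1a, TKO mouse 1 (3.523 CPM) was all but level with wt mouse 3 (3.526 CPM). Every TKO mouse lay below every wt mouse for 5.16% of all genes, and below every Zmat3-/- mouse for 1.43%. Neither gene passed in TKO against wt (log2 fold change -0.48, adjusted p = 0.399, for Bbc3 and -1.1, adjusted p = 0.443, for Cdkn1a, edgeR quasi-likelihood test). Counts cover whole genes and the deleted parts are not marked in the table, so remaining counts do not by themselves go against the labels.

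Mice of one genotype also differed in ways the labels do not give, and these differences touch every result below. Xist, the transcript of the inactive X chromosome, divided the mice into 5 with 505 to 1485 CPM, called Xist-high, and 6 with 0.806 to 2.54 CPM, called Xist-low. Mice 1 and 2 of both the wt and the Zmat3-/- group and mouse 1 of the TKO group were Xist-high. The Y-linked Ddx3y was at 164 CPM or more in every Xist-low mouse and at 0.651 CPM or less in every Xist-high mouse, so the classes follow the markers of sex. In wt the 2 Xist-high libraries also stood apart from the 2 Xist-low ones over all genes (correlation of log2 CPM 0.889 to 0.922 between them, 0.983 and 0.984 within each pair), whereas in Zmat3-/- mice all correlations were 0.986 to 0.992. Xist class, mouse number and any unlabelled factor shared by these mice cannot be told apart.

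No interferon-stimulated gene passed an adjusted p of 0.05 in any of the 3 genotype comparisons. All 35 genes were tested each time, and 0 of 35 were called in Zmat3-/- against wt (0.763% of all 13494 genes were called), 0 of 35 in TKO against wt (0.294% of 13260) and 0 of 35 in TKO against Zmat3-/- (0.221% of 13124). With a log2 fold change beyond 1.5 in either direction required as well, the counts were 0 of 35 each (0.319%, 0.241% and 0.122% of all genes). At an unadjusted p under 0.05, the counts were 1 higher (7.18% of all genes) and 1 lower (8.92%) in Zmat3-/- against wt, 1 higher (4.17%) and 0 lower (6.18%) in TKO against wt, and 0 higher (2.26%) and 0 lower (2.23%) in TKO against Zmat3-/-. With 1 surrogate variable in the model 8 of 35 were called in Zmat3-/- against wt (6 higher and 2 lower, against 37.9% of all genes) and 1 in TKO against wt (Dtx3l, higher, against 15.4%). Without wt mice 1 and 2, a choice made after the data were seen, 8 of 35 were called in Zmat3-/- against wt (7 higher and 1 lower, against 33% of all genes) and 0 in TKO against wt. Without wt mice 3 and 4 the counts were 24 (6 higher and 18 lower, against 56.1%) and 15 (against 43.6%). The study design asks for the effect of losing Zmat3 and of the added loss of Puma and p21, and for these genes the median log2 fold change was -0.10 in Zmat3-/- against wt, with 13 genes above and 22 below 0 (median of all genes -0.026). It was -0.086 in TKO against wt, with 15 above and 20 below 0 (all genes -0.037), and 0.03 in TKO against Zmat3-/-, with 20 above and 15 below (all genes -0.0083). The sign of the first pair of medians depended on the model. In TKO against wt the median was 0.12 with Xist level as covariate (all genes 0.0043) and 0.15 with 1 surrogate variable (all genes 0.011), and in Zmat3-/- against wt it was 0.039 with 1 surrogate variable (all genes 0.018). The first 2 comparisons share the wt mice.

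**Figure D1:**
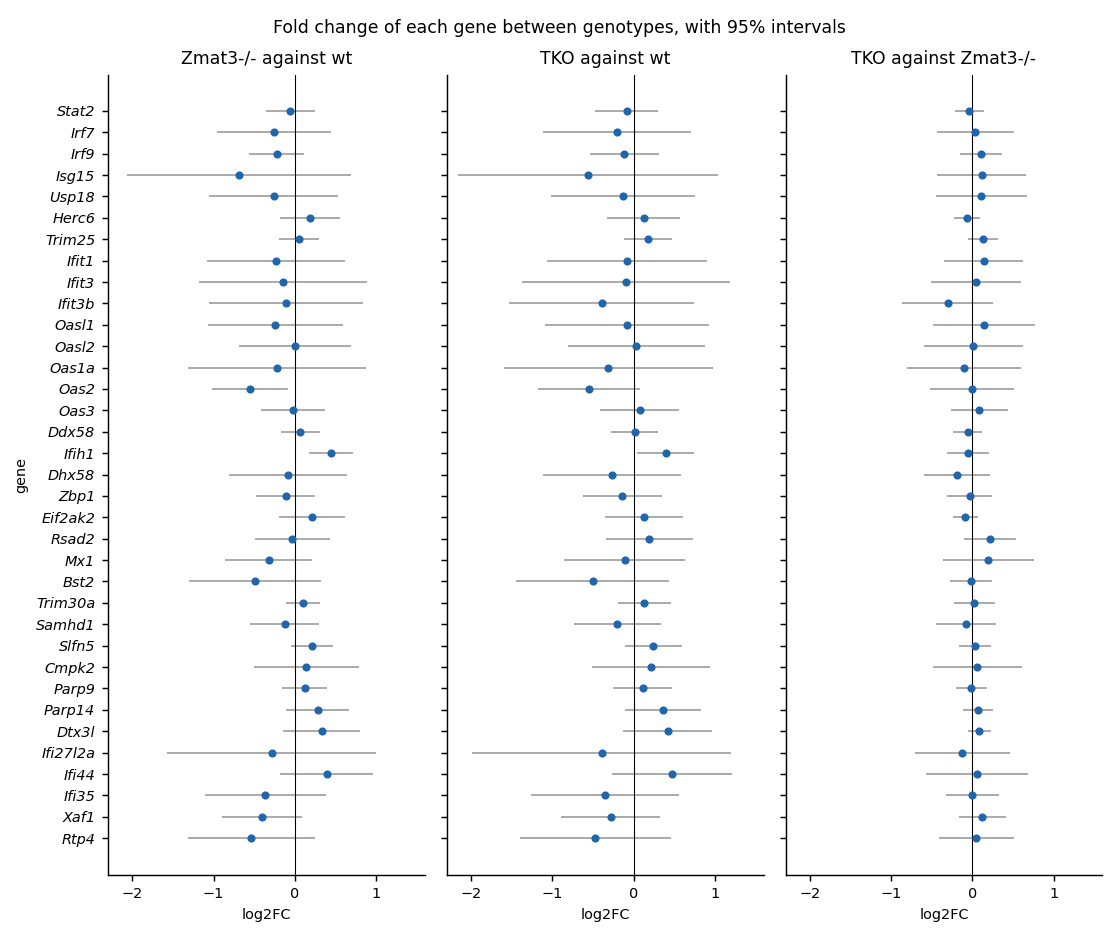
The log2 fold change of each of the 35 genes (points) with its 95% interval (lines) in the 3 genotype comparisons, ordered by role. The intervals of Isg15 reach from -2.06 to 0.69 in Zmat3-/- against wt, whereas in TKO against Zmat3-/- all 35 intervals stay between -1 and 1.

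How far a difference was limited by the data varied with the comparison. In TKO against Zmat3-/- mice the 95% interval of every one of the 35 genes lay within 2-fold in either direction. Against wt this held for 23 genes in Zmat3-/- and 20 in TKO mice, where the standard error of the log2 fold change reached 0.603 and 0.690 for Isg15. Failing the threshold does not show equal levels for any of the 35 genes.

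The 3 transcription factors of the response were well expressed, and none passed the adjusted threshold by genotype in the model of all mice without covariates. Stat2, a subunit of ISGF3, was at 55.5, 63.2, 75.5 and 79.7 CPM in wt, 65.0, 62.6, 70.5 and 65.1 in Zmat3-/- and 65.8, 67.5 and 65.6 in TKO mice. Its wt range enclosed all 7 mutant mice, and its log2 fold change was -0.05 (SE 0.134, adjusted p = 0.857) in Zmat3-/- and -0.09 (SE 0.166, adjusted p = 0.842) in TKO mice. Without wt mice 1 and 2 Stat2 was called lower in Zmat3-/- mice (-0.26, adjusted p = 0.0139, against 33% of all genes), and without wt mice 3 and 4 it was not called. Irf7, the factor that amplifies interferon production, was at 70.4, 57.1, 24.7 and 31.5 CPM in wt, 44.7, 42.4, 33.4 and 32.4 in Zmat3-/- and 42.7, 49.2 and 28.7 in TKO mice. The wt mice again lay both above and below the mutants (log2 fold change -0.25, SE 0.308, adjusted p = 0.698, and -0.21, SE 0.394, adjusted p = 0.840). Irf9, the DNA-binding subunit of ISGF3, was at 70.3, 71.5, 46.9 and 56.1 CPM in wt, 57.0, 56.3, 44.4 and 51.1 in Zmat3-/- and 59.4, 60.2 and 53.9 in TKO mice (log2 fold change -0.22, adjusted p = 0.489, and -0.11, adjusted p = 0.809). In each of the 4 pairs of mice with the same number Irf9 was lower in Zmat3-/- than in wt (-0.21, adjusted p = 0.357 with the replicate block), and it was called lower with Xist level and 1 surrogate variable (-0.20, adjusted p = 0.0448, against 39.7% of all genes). Among Xist-high mice, a class described further on, both Irf7 (-0.53, adjusted p = 0.00802) and Irf9 (-0.30, adjusted p = 0.0337) were called lower in Zmat3-/- mice, against 52.2% of all genes called. In TKO against Zmat3-/- mice the 3 factors differed by -0.04, 0.03 and 0.10 on the log2 scale, in the order Stat2, Irf7 and Irf9.

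Among the cytoplasmic RNA sensors, Ifih1 had the smallest p of all 35 genes in both comparisons with wt. Ifih1 encodes MDA5, the sensor of long double-stranded RNA. It was at 13.2, 13.7, 14.4 and 16.1 CPM in wt, 21.03, 20.4, 19.6 and 17.0 in Zmat3-/- and 20.4, 19.2 and 18.6 in TKO mice, so that every mutant mouse lay above every wt mouse. The fitted level was 1.36-fold higher in Zmat3-/- mice (log2 fold change 0.45, SE 0.118, 95% interval 0.18 to 0.72, unadjusted p = 0.00471) and 1.32-fold higher in TKO mice (0.40, SE 0.152, interval 0.05 to 0.75, unadjusted p = 0.0311). Adjusted over all genes these p-values were 0.122 and 0.434, short of the threshold, and the exact two-sided permutation test gave p = 0.0286 in each, the smallest it can reach with these group sizes. Every mutant mouse above every wt mouse was seen for 7.31% of all genes in Zmat3-/- and for 6.95% in TKO mice. With DESeq2 in place of edgeR Ifih1 was called in Zmat3-/- mice (log2 fold change 0.45, adjusted p = 0.00941, against 8.04% of all genes called), and it was also called with Xist level and 1 surrogate variable, a factor estimated from the data, in the model (0.42, adjusted p = 0.0029, against 39.7% of all genes).

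The other sensors did not separate. Eif2ak2, which encodes the double-stranded RNA kinase PKR, was at 25.3, 23.3, 38.0 and 35.96 CPM in wt, 37.1, 35.4, 34.4 and 34.9 in Zmat3-/- and 32.6, 32.1 and 39.0 in TKO mice. Wt mice 1 and 2 lay below all the other mice for this gene, and wt mice 3 and 4 within or above the Zmat3-/- range. Ddx58, which encodes the sensor RIG-I, had its 11 values within 1.23-fold of each other. Dhx58 and Zbp1, which encode the RIG-I-like regulator LGP2 and a sensor of Z-form nucleic acids, ranged over 2.98-fold and 1.67-fold among the 11 mice, with adjusted p of 0.913 and 0.741 in Zmat3-/- mice. In TKO against Zmat3-/- mice all 5 sensors had a log2 fold change below 0 (-0.19 to -0.03), and none passed a test.

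The 2′-5′ oligoadenylate synthetases, which make the activator of RNase L, included the gene with the second smallest p. Oas2 was at 11.9, 11.6, 8.05 and 13.3 CPM in wt, 8.84, 9.05, 6.16 and 6.35 in Zmat3-/- and 8.71, 8.83 and 5.83 in TKO mice. Only wt mouse 3 overlapped the mutants. The log2 fold change was -0.55 in Zmat3-/- (SE 0.204, unadjusted p = 0.0248, adjusted p = 0.238, exact permutation p = 0.0857) and -0.55 in TKO mice (SE 0.270, adjusted p = 0.526), with -0.01 between the 2 mutants. With 1 surrogate variable Oas2 was called lower in Zmat3-/- mice (-0.53, adjusted p = 0.0317, against 37.9% of all genes called), and so it was with Xist level added (-0.61, adjusted p = 0.00842, against 39.7%). The other 4 members of this family had log2 fold changes of -0.24 to 0.01 in Zmat3-/- against wt. Oas1a shares 68.7% of its 31-base words with Oas1g, so their reads can be exchanged. Together they gave 21.7, 16.2, 5.68 and 5.73 CPM in wt, 14.8, 12.7, 8.01 and 8.22 in Zmat3-/- and 11.6, 12.9 and 6.21 in TKO mice, the mutants again inside the wt range.

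The genes of the Ifit proteins, which bind viral RNA lacking host-type 5′ ends, were low and varied most within wt. A larger SD of log2 CPM in wt than in Zmat3-/- mice was seen for 88.2% of all genes. Ifit3 was at 27.7, 16.7, 4.69 and 9.81 CPM in wt, 16.7, 13.5, 10.5 and 12.2 in Zmat3-/- and 16.5, 16.2 and 9.33 in TKO mice. Its copy Ifit3b was at 5.90, 4.30, 1.41 and 2.19 CPM in wt, 4.17, 2.99, 2.95 and 2.62 in Zmat3-/- and 2.72, 3.06 and 2.29 in TKO mice. Ifit3 shares 61.8% of its words with Ifit3b, and Ifit3b 54.1% with Ifit3, so the split between them is uncertain. Their sum was 18.2 ± 12.0 CPM in wt (SD, n = 4), 16.4 ± 3.25 in Zmat3-/- (SD, n = 4) and 16.7 ± 4.41 in TKO mice (SD, n = 3). The means differed by far less than the spread among the wt mice. Ifit1 behaved alike, at 17.3 ± 9.11 CPM in wt (SD, n = 4) and 14.6 ± 3.54 in Zmat3-/- mice (SD, n = 4).

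In the PARP9 group, made up of ADP-ribosyltransferase family members and an E3 ligase, all 3 genes had higher means in both mutants. Parp14 was at 44.9, 53.6, 70.9 and 73.8 CPM in wt, 74.5, 79.2, 67.8 and 74.7 in Zmat3-/- and 77.0, 83.0 and 81.0 in TKO mice. Dtx3l, the ligase partner of PARP9, was at 52.0, 70.4, 102 and 94.4 CPM in wt, 96.5, 98.1, 108 and 98.1 in Zmat3-/- and 102, 103 and 125 in TKO mice. For both genes wt mice 1 and 2 were far below and wt mice 3 and 4 next to the mutants, and neither passed the test (Parp14 0.28, adjusted p = 0.445, and 0.36, adjusted p = 0.569; Dtx3l 0.33, adjusted p = 0.464, and 0.42, adjusted p = 0.572). The lowest TKO value of Parp14 exceeded the highest wt value, as for 6.95% of all genes. Parp9 itself differed by 0.12 and 0.11 on the log2 scale. With Xist level and 1 surrogate variable in the model, Parp14 (0.25, adjusted p = 0.0019) and Dtx3l (0.31, adjusted p = 0.00231) were called higher in Zmat3-/- mice, and Dtx3l also in TKO mice (0.29, adjusted p = 0.0445), in fits that called 39.7% and 13.4% of all genes.

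Of the ISG15 system, the ubiquitin-like modifier and its enzymes, Trim25, an E3 ligase of the RIG-I pathway, was at 124, 112, 133 and 129 CPM in wt, 126, 141, 134 and 114 in Zmat3-/- and 129, 143 and 166 in TKO mice. It had the smallest p of the 35 genes in TKO against Zmat3-/- mice, and did not pass there (log2 fold change 0.13, SE 0.0823, unadjusted p = 0.151, adjusted p = 0.983). Isg15 itself had the largest fall in both comparisons with wt and also the largest error. It was at 43.5, 25.5, 5.06 and 7.77 CPM in wt, 16.9, 13.3, 11.4 and 8.72 in Zmat3-/- and 14.7, 16.9 and 10.7 in TKO mice. All 7 mutant mice lay between the upper and the lower pair of wt mice (log2 fold change -0.68, SE 0.603, adjusted p = 0.602, and -0.56, SE 0.690, adjusted p = 0.758). Usp18, the protease which removes ISG15, and Herc6, the mouse ISG15 ligase, differed by -0.26 and 0.19 in Zmat3-/- mice.

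Among the restriction factors and the remaining genes, Slfn5, a Schlafen family member, was at 56.9, 52.7, 60.3 and 70.1 CPM in wt, 72.9, 70.1, 65.0 and 68.7 in Zmat3-/- and 78.4, 68.8 and 71.3 in TKO mice (log2 fold change 0.21, SE 0.113, adjusted p = 0.404, and 0.24, SE 0.151, adjusted p = 0.6). Xaf1, a pro-apoptotic antagonist of XIAP, was at 27.2, 22.1, 13.4 and 15.1 CPM in wt, 15.3, 15.9, 12.95 and 14.4 in Zmat3-/- and 17.7, 16.5 and 15 in TKO mice (log2 fold change -0.40, adjusted p = 0.394, and -0.28, adjusted p = 0.694). With Xist level and 1 surrogate variable, Xaf1 (-0.30, adjusted p = 0.0166), Rtp4 (-0.34, adjusted p = 0.0109) and Irf9 (-0.20, adjusted p = 0.0448) were called lower in Zmat3-/- mice, in a fit that called 39.7% of all genes. Rsad2, which encodes the antiviral enzyme viperin, was at 8.72, 5.12, 8.71 and 6.85 CPM in wt, 7.79, 6.28, 8.05 and 6.56 in Zmat3-/- and 8.53, 8.45 and 8.92 in TKO mice. All 3 TKO mice lay above all 4 Zmat3-/- mice for Rsad2 (3.49% of all genes did), with a fitted fold of 1.16 (log2 fold change 0.22, SE 0.142, adjusted p = 0.983, exact permutation p = 0.0857). The other genes of these 2 groups had log2 fold changes of -0.53 (Rtp4) to 0.40 (Ifi44) in Zmat3-/- against wt and of -0.50 (Bst2) to 0.47 (Ifi44) in TKO against wt. Bst2 encodes tetherin, which holds budding virions at the cell surface.

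On the scale of CPM per kilobase of exon, which allows genes to be compared, Ifi27l2a was the highest (84.9, mean of 11 mice), followed by Bst2 (49.0), Trim25 (22.9), Isg15 (20.99) and Trim30a (17.5). Ifi44 (0.656), Mx1 (1.34), Ifit3b (1.57), Cmpk2 (1.69) and Rsad2 (1.76) were the lowest. The spread among mice sets limits on this order, since Isg15 ranged over 8.6-fold and Ifi27l2a over 6.54-fold among the wt mice, and the values of Isg15 ran from below the lowest to above the highest of both its neighbours. Trim25 exceeded Trim30a in all 11 mice.

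**Figure D2:**
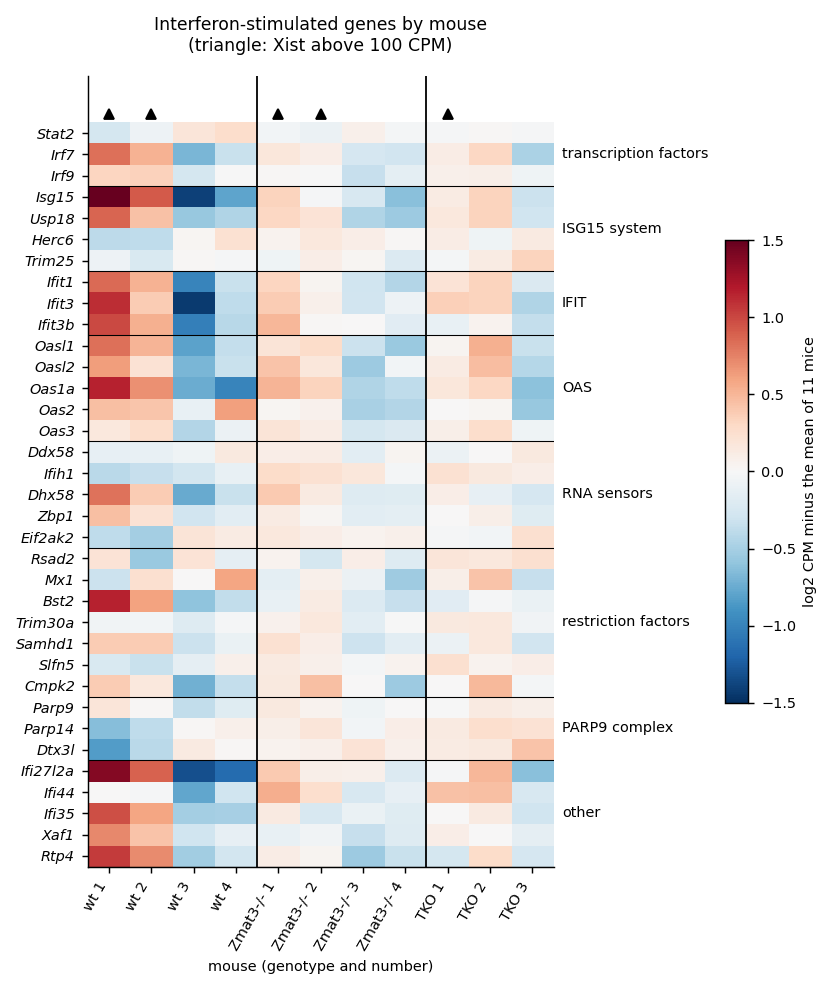
Each row is a gene, grouped by role, and each column a mouse; colour gives log2 CPM minus the mean of the 11 mice, and triangles mark Xist-high mice. The darkest cells are in wt, where mice 1 and 2 are high and mice 3 and 4 low for Isg15, Ifi27l2a, Bst2 and the Ifit genes.

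The larger differences lay between mice of one genotype. The mean of the 35 centred log2 values was 0.40, 0.20, -0.44 and -0.18 in wt mice 1 to 4, 0.18, 0.09, -0.16 and -0.20 in Zmat3-/- mice and 0.07, 0.20 and -0.14 in TKO mice. The value of TKO mouse 3 depended on the scaling and was -0.28 with RLE size factors in place of TMM. That mouse was the highest of the 3 TKO mice for 66.1% of all genes and for 6 of the 35. By genotype these were -0.0083 ± 0.377 (SD, n = 4) in wt, -0.023 ± 0.186 (SD, n = 4) in Zmat3-/- and 0.042 ± 0.171 (SD, n = 3) in TKO mice. The genotype means differed by less than the spread of any group. The SD of log2 CPM was larger in wt than in Zmat3-/- mice for 32 of the 35 genes (91.4%), close to the 88.2% of all genes. Wt mouse 1 had the highest value of all 11 mice for 17 of 35 genes (29.5% of all genes), and wt mouse 3 the lowest for 19 of 35 (12.3% of all genes).

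Ifi27l2a, a small mitochondrial protein gene, was named after its values were seen as an example of this spread. It was at 89.3, 63.2, 13.7 and 15.2 CPM in wt, 45.0, 36.3, 36.1 and 29.6 in Zmat3-/- and 33.7, 48.3 and 22.2 in TKO mice. Wt mice 1 and 2 exceeded wt mice 3 and 4 by 5.19-fold, and in Zmat3-/- mice the same pairs differed by 1.24-fold. Bst2 was at 93.3, 63.5, 27.4 and 32.3 CPM in wt, 38.6, 45.4, 36.2 and 32.8 in Zmat3-/- and 36.9, 41.2 and 39.0 in TKO mice. For both genes the wt pairs lay on either side of all 7 mutant mice.

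**Figure D3:**
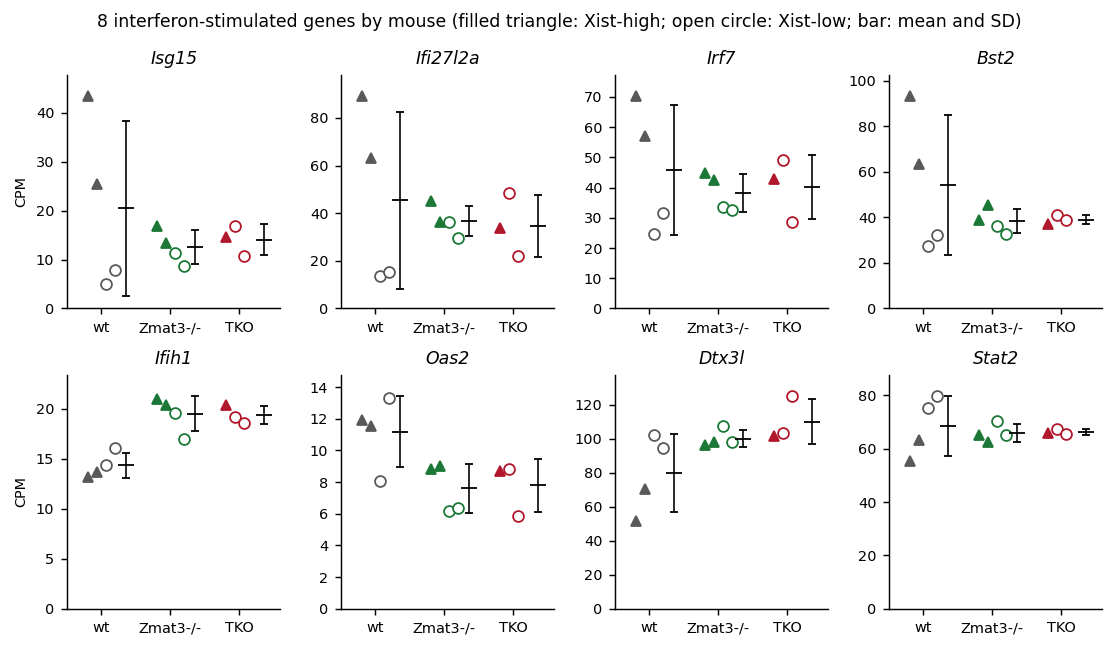
CPM of 8 genes in each mouse by genotype; filled triangles are Xist-high and open circles Xist-low mice, and the bar beside each genotype gives mean and SD. For Ifih1 all 7 mutant mice lie above the 4 wt mice, and for Isg15 all 7 lie between the wt pairs.

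Xist-high mice carried the higher level for most of the 35 genes in both genotypes that had 2 mice of each class. In wt the 2 Xist-high mice were above both Xist-low mice for 22 of 35 genes (44.3% of all genes) and below them for 9 (38.3%). In Zmat3-/- mice they were above for 27 of 35 (26.9% of all genes) and below for 2, Stat2 and Dtx3l (27.4%). In both genotypes they were above for 21 genes (18.7% of all genes), among them Irf7, Irf9, Isg15, Usp18, all 3 Ifit and 4 of the Oas genes. The median difference in log2 CPM between the classes was 0.56 in wt and 0.28 in Zmat3-/- mice, against 0.062 and 0.00096 over all genes. It was largest in Zmat3-/- mice for Oas1a (0.84), Usp18 (0.76) and Oasl1 (0.68). These counts describe 2 mice against 2 and are no test.

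TKO mice did not follow this order. The single Xist-high TKO mouse was above both others for 5 of 35 genes (17.3% of all genes) and below both for 7 (32.5%). The Xist-low TKO mouse 2 was instead the highest for 24 of 35 genes (16.5% of all genes), and TKO mouse 3, the most deeply sequenced, was the lowest for 24 of 35 (16.8%). Irf7 shows the pattern, with 42.7 CPM in TKO mouse 1, 49.2 in mouse 2 and 28.7 in mouse 3.

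Transcript length moved with the difference among wt mice. For the 11 genes with under 3.13 kb of exon, such as Isg15, Ifi27l2a and Bst2, the median difference between the wt pairs was 1.4 in log2 CPM (0.60 over all genes of that length). For the 12 genes of middle length it was 0.42 (0.093 over all genes), and for the 12 genes above 5.67 kb, such as Parp14, Dtx3l and Herc6, it was -0.17 (-0.42 over all genes). In Zmat3-/- mice the 3 medians were 0.51, 0.24 and 0.14, against 0.051, 0.012 and -0.052 over all genes. The genotype comparison with wt also moved with length, in the opposite direction, with medians of -0.26, -0.096 and 0.13 in Zmat3-/- mice for short, middle and long genes, beside -0.20, -0.041 and 0.13 over all genes. The part of length in these results was not tested.

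**Figure D4:**
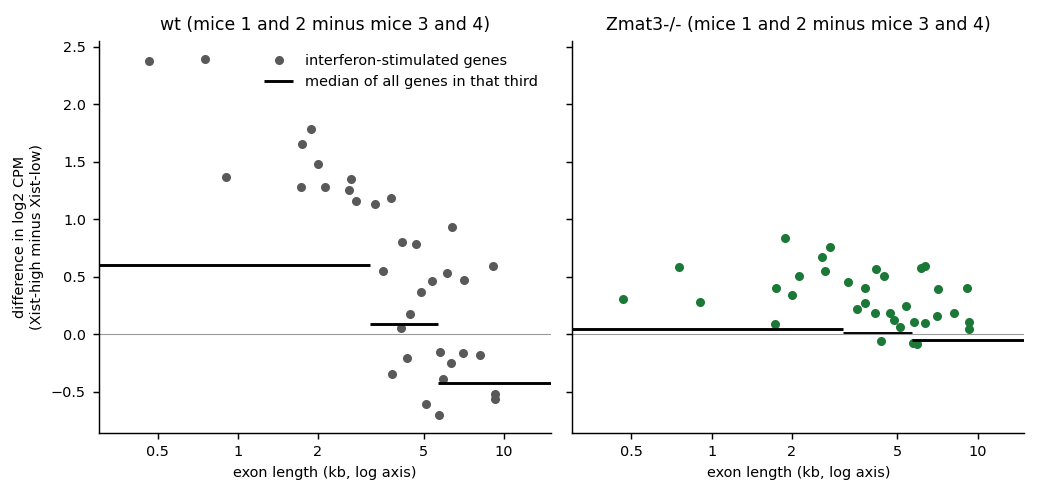
Difference in log2 CPM between mice 1 and 2 (Xist-high) and mice 3 and 4 (Xist-low) against exon length in kb on a log axis, for wt (left) and Zmat3-/- mice (right); points are the 35 genes and lines the median of all genes in the short, middle and long class. In wt the points fall from above 2 to below 0 with length, and in Zmat3-/- mice all but Stat2, Rsad2 and Dtx3l lie above 0.

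The genotype comparison changed with the class of mouse. In a model with genotype, Xist class and their interaction, chosen after the data were seen, 15 of 35 genes were called among Xist-high mice of Zmat3-/- against wt (52.2% of all genes called) and 2 among Xist-low mice (15.5%). Of the 15, 6 were higher (26.7% of all genes) and 9 lower (25.5%), and of the 2, 1 was higher (8.41%) and 1 lower (7.09%). The 9 that fell among Xist-high mice were Irf7, Irf9, Isg15, Ifi27l2a, Ifi35, Oas1a, Xaf1, Rtp4 and Bst2, with log2 fold changes of -1.16 (Isg15) to -0.30 (Irf9). The 6 that rose there were Dtx3l (0.69), Parp14 (0.66), Ifih1 (0.65), Eif2ak2 (0.60), Herc6 (0.52) and Slfn5 (0.41). Among Xist-low mice Ifi27l2a rose (1.17, SE 0.188, adjusted p = 0.00388) and Oas2 fell (-0.79, SE 0.219, adjusted p = 0.0395). The difference between the classes was itself called for 14 of 35 genes (40%, against 44.2% of all genes), a share below that of the whole table. The Xist-high class held 1 TKO mouse, so that genotype and that mouse cannot be told apart there. For TKO against wt, 0 of 35 were called among Xist-low mice (2.84% of all genes, 0.988% higher and 1.85% lower). There 29 genes had a log2 fold change above 0 and 6 below, with a median of 0.25 (all genes 0.016). For the single Xist-high TKO mouse against wt, 13 genes were above and 22 below 0, with a median of -0.29 (all genes -0.013). For TKO against Zmat3-/- the model called 0 of 35 among Xist-low mice, against 0.183% of all genes (0.0914% in each direction).

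**Figure D5:**
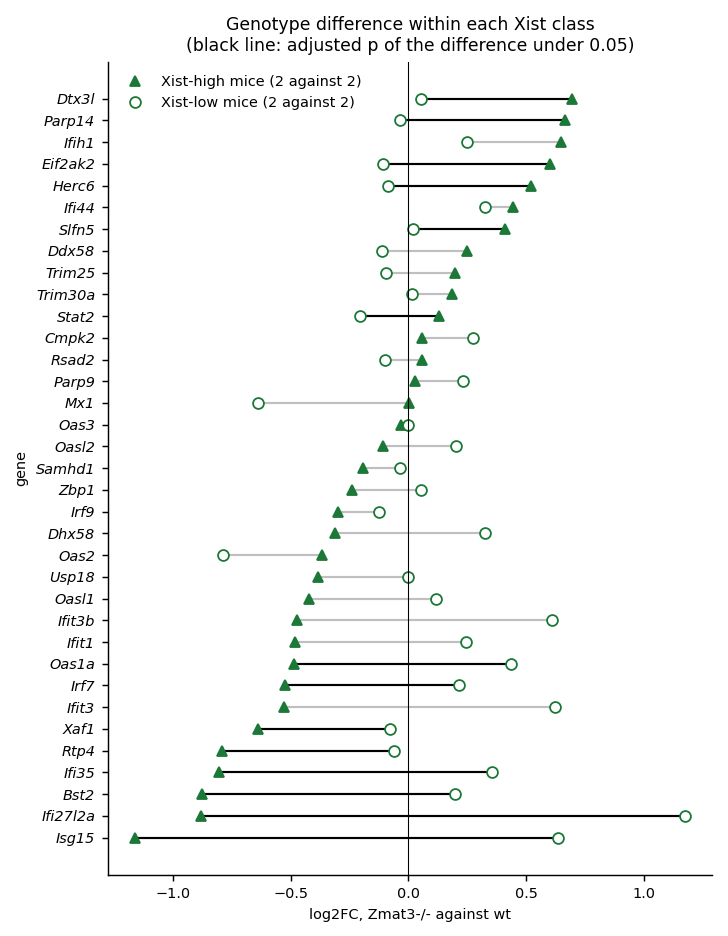
Log2 fold change of Zmat3-/- against wt within Xist-high mice (triangles) and Xist-low mice (circles) for each gene; a black line joins genes whose difference between classes had an adjusted p under 0.05. Isg15 runs from -1.16 to 0.64 and Dtx3l from 0.69 to 0.05.

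The rest of the interferon pathway was examined through fixed gene lists. Of 21 interferon genes only Ifng, the T cell and natural killer cell cytokine, passed the filter on low counts in the comparisons of Zmat3-/- mice with wt and with TKO mice, at 1.09, 0.596, 0.415 and 0.5 CPM in wt, 0.979, 1.27, 1.13 and 0.872 in Zmat3-/- and 0.780, 1.5 and 1.81 in TKO mice (log2 fold change 0.70, adjusted p = 0.351, in Zmat3-/- against wt). Ifnb1 had 1 count in 1 of 11 mice, which allows a level of up to 3 counts, or 0.0403 to 0.167 CPM, in each mouse with none (counting error only). Of the 21 genes, 16 had no count in any wt mouse, 14 in any Zmat3-/- mouse and 16 in any TKO mouse. Of the receptor and JAK-STAT genes, 9 of 10 were tested and 0 called in each comparison. Ifnar1 was at 122 ± 31.8 CPM in wt (SD, n = 4), 126 ± 13.9 in Zmat3-/- (SD, n = 4) and 135 ± 27.0 in TKO mice (SD, n = 3), and Ifnar2 differed by -0.14 and -0.15 on the log2 scale. Jak2 and Jak1, the kinases, and Ifngr2, a chain of the interferon gamma receptor, had the smallest p of this list over the 3 comparisons, with log2 fold changes in Zmat3-/- against wt of 0.47 (adjusted p = 0.188), 0.35 (adjusted p = 0.415) and -0.34 (adjusted p = 0.357).

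Of the sensors and inducers of interferon, 13 of 13 were tested against wt and 0 called. Irf3, the factor that switches on Ifnb1, was at 147, 141, 104 and 94.8 CPM in wt, 85.7, 89.0, 89.6 and 92.3 in Zmat3-/- and 91.3, 87.2 and 90.1 in TKO mice. Every mutant mouse lay below every wt mouse for Irf3 (as for 6.75% of all genes in Zmat3-/- and 5.16% in TKO mice), and the adjusted p was 0.183 (log2 fold change -0.44) and 0.429 (-0.48). Tlr9 and Tlr7, the endosomal sensors of DNA and RNA, had log2 fold changes of 1.19 (adjusted p = 0.164) and 0.29 (adjusted p = 0.336) in Zmat3-/- mice, with Tlr9 at most at 4.17 CPM in any mouse. A list of 8 genes, made up of other interferon regulatory factors and the IRF2-binding genes Irf2bp1 and Irf2bp2, and the 13 negative regulators held 0 called genes in each comparison. Irf1, which interferon gamma induces, was at 116, 102, 64.4 and 66.7 CPM in wt, 97.0, 95.3, 82.7 and 93.1 in Zmat3-/- and 93.3, 106 and 107 in TKO mice. Of the first list, Irf2 differed by 0.18 (adjusted p = 0.983) in TKO against Zmat3-/- and Irf4 by 0.31 (adjusted p = 0.35) in Zmat3-/- against wt. Ptpn1, Ptpn2 and Trex1 had the smallest p of the second list over the 3 comparisons, at 0.22 (adjusted p = 0.274) in Zmat3-/- against wt, -0.12 (adjusted p = 0.983) in TKO against Zmat3-/- and -0.66 (adjusted p = 0.442) in Zmat3-/- against wt.

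A second list of 52 interferon-stimulated genes held 49 tested genes, of which 0 were called higher and 2 lower in Zmat3-/- against wt (0.763% of all genes were called in either direction), 0 in TKO against wt (0.294%) and 0 in TKO against Zmat3-/- (0.221%). The 2 were Oas1b and Ms4a4b. Oas1b, an oligoadenylate synthetase linked to flavivirus resistance, was at 16.6, 15.6, 16.1 and 15.7 CPM in wt, 7.30, 8.23, 5.36 and 6.39 in Zmat3-/- and 8.48, 8.28 and 6.25 in TKO mice. Every mutant mouse lay below every wt mouse for Oas1b (6.75% of all genes in Zmat3-/- and 5.16% in TKO mice), and it fell by 1.22 on the log2 scale in Zmat3-/- mice (SE 0.146, adjusted p = 0.0134) and was -1.09 in TKO mice (adjusted p = 0.102). Ms4a4b, a membrane protein of mature T cells, fell by 0.49 (SE 0.0787, adjusted p = 0.0344) and was also on the list of mature thymocyte markers. Ifi207, a DNA-binding HIN-200 protein, had the next smallest p (0.76, adjusted p = 0.137). Of 17 tested interferon gamma-responsive GTPases and chemokines, 1 was called in Zmat3-/- against wt (0.763% of all genes), Irgm2, a GTPase of vacuole membranes. It was at 30.5, 34.2, 33.4 and 34.8 CPM in wt, 21.8, 19.2, 21.5 and 20.9 in Zmat3-/- and 22.8, 20.8 and 20.8 in TKO mice. Irgm2 fell by 0.67 in Zmat3-/- mice (SE 0.0952, adjusted p = 0.0248) and was -0.67 in TKO mice (adjusted p = 0.162), while Gbp5 and Gbp6, the guanylate-binding proteins, were 0.54 (adjusted p = 0.198) and 0.37 (adjusted p = 0.241) in Zmat3-/- mice. Oas1b and Irgm2 differed little among the 4 wt mice.

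Markers of other cells were measured in the same libraries, and in bulk samples fewer cells of a type and less RNA per cell cannot be told apart. The 12 thymocyte genes, which define the labelled cell type, summed to 12730 to 16380 CPM in the wt, to 13460 to 15630 CPM in the Zmat3-/- and to 14390 to 19240 CPM in the TKO group, with 0 of 12 called in each comparison, and the 10 double-positive thymocyte markers summed to 9914 to 14030, 11080 to 13250 and 11860 to 16030 CPM, also with 0 called. The sum of 10 mature single-positive markers was 1109, 1069, 743 and 729 CPM in wt, 761, 745, 698 and 740 in Zmat3-/- and 712, 744 and 780 in TKO mice. The pair of wt mice with high interferon-stimulated genes was thus also high here. TKO mouse 3, the lowest of its group for most of the 35 genes, instead had the highest sum of its group. Of these 10 genes, 9 had a log2 fold change below 0 in Zmat3-/- against wt (median -0.48) and 1, Ms4a4b, was called (0.763% of all genes). Plasmacytoid dendritic cell markers, 1 of which is Bst2 itself, summed to 1073, 1200, 1322 and 1245 CPM in wt mice 1 to 4. The sums were 1169 to 1407 CPM in the Zmat3-/- and 1302 to 1547 CPM in the TKO group. Ccr9, which thymocytes also express, was at 428, 634, 941 and 888 CPM in wt. Of the 9 markers tested in all groups, 7 were higher in wt mice 1 and 2 than in wt mice 3 and 4 and 2, Ccr9 and Tcf4, were lower (median difference in log2 CPM 0.76, against 44.3% of all genes higher), as 22 of the 35 genes were higher. Siglech was at 6.20, 6.71, 4.65 and 5.00 CPM in wt, and Tcf4 at 38.7, 35.7, 49.4 and 48.8 CPM. In TKO mice 1 to 3 Siglech was at 6.04, 5.945 and 7.26 CPM, the highest in mouse 3. Myeloid markers summed to 424, 453, 246 and 228 CPM in wt, 440, 323.5, 362 and 309 in Zmat3-/- and 372, 474 and 194 in TKO mice. Wt mice 1 and 2 were thus above wt mice 3 and 4, as for most of the 35 genes. TKO mouse 2 was the highest and TKO mouse 3 the lowest of its group, again as for most of the 35. In Zmat3-/- mice, Xist-high mouse 2 was below Xist-low mouse 3, unlike most of the 35. B cell markers summed to 72.1 to 145, 73.9 to 98.9 and 65.9 to 95.6 CPM, and erythroid genes to 880 to 8561, 1153 to 5706 and 2677 to 3721 CPM, in wt, Zmat3-/- and TKO mice. Epithelial and stromal markers summed to 388, 387, 234 and 295 CPM in wt mice 1 to 4, with the first pair again higher, and to 285 to 327 CPM in Zmat3-/- and 234 to 316 CPM in TKO mice. No gene of these last 5 lists was called, and no marker was at 0 in every mouse of a group. Immediate-early genes, which tissue handling can raise, summed to 2040, 1847, 1151 and 1138 CPM in wt, and ranged from 2199 to 2712 CPM in the Zmat3-/- and from 2257 to 2756 CPM in the TKO group, with 6 of 21 called higher in each comparison with wt (0.763% of all genes were called in Zmat3-/- and 0.294% in TKO mice). The part of these cells and of handling in the levels of the interferon-stimulated genes was not tested.

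Within Zmat3-/- mice the class split was seen in some related lists and not in others. Xist-high mice were above Xist-low mice for 28 of 49 genes of the second interferon-stimulated list and below for 1, and above for all 8 genes of the list of other interferon regulatory factors and IRF2-binding genes. They were above for 2 of 9 receptor and JAK-STAT genes and below for 3, above for 4 of 13 negative regulators and below for 3, and above for 5 of 12 sensors and inducers and below for 3. They were above for 8 of 17 interferon gamma-responsive genes, 7 of 9 plasmacytoid dendritic cell markers, 7 of 13 myeloid markers and 5 of 9 mature thymocyte markers, and for 0 of 12 thymocyte genes, 7 of which were lower. Over all genes the shares were 26.9% above and 27.4% below. Erythroid genes were lower in Xist-high mice for 5 of 5 genes in each of the 3 genotypes.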

How the data were processed

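RNA of thymocytes from 4 wt, 4 Zmat3-/- and 3 TKO mice was sequenced (100 ng RNA, TruSeq RNA Prep Kit v2, paired-end reads). The authors processed the reads with nf-core/rnaseq and Salmon on GRCm38.p6 with a GENCODE annotation, and deposited estimated counts per gene, all 598598 of which were whole numbers. Gene names came from a GENCODE annotation of the same build, which matched 54166 of 54418 identifiers. Promoters were RefSeq sequences (GRCm38.p6).

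Xist, Y-linked, ribosomal RNA and non-coding immunoglobulin genes (1628 in all) were left out of the tests. A gene was kept if at least n mice, n being the size of the smaller group, had 20 counts after scaling to the library with the fewest reads. Each pair of genotypes was compared by the edgeR quasi-likelihood test (edgeR 4.0.16, R 4.3.3) with TMM factors, no covariates and Benjamini-Hochberg adjustment over all genes. A gene was called at an adjusted p under 0.05. The authors' own model (DESeq2) had sex and surrogate variables as covariates. Alternatives used DESeq2 1.42.0, an Xist covariate and sva 3.50.0, and the script was tested on simulated data. Total counts of 17669715 to 80207003 set the precision, and floors cover counting error only, while 95% intervals of fold changes rest on the spread between mice.

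Replicate numbers of wt and Zmat3-/- mice are shared in the labels, and deviations of same-numbered mice correlated at 0.34, 0.13, 0.26 and 0.3. The same-numbered mouse was the best partner for numbers 3 and 4 and not for numbers 1 and 2. These numbers also follow Xist class, so the correlations do not show that the samples are paired. No litter or batch is stated, and a replicate block was run only as an alternative.

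The genes and lists were chosen with earlier results of these data known. Named in full were Stat2, Irf7, Irf9, Ifit3 with Ifit3b, the targeted genes, and in each comparison the 5 genes with the smallest unadjusted p. From each pathway list the 3 with the smallest p were named, with Ifnb1, Ifng, Ifnar1, Ifnar2, Irf3 and Irf1, and some items are not reported here. Isg15, Ifi27l2a and Bst2 were named after their values were seen. Fits by Xist class, without pairs of wt mice, and with Xist level and a surrogate variable together were also chosen after seeing the data.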

Additional observations from a re-analysis of the deposited data

Results flagged for a closer look

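The difference between Zmat3-/- and wt mice depended on Xist class (the interaction term, adjusted p under 0.05) for 14 of the 35 genes, against 44.2% of all genes. The log2 fold change among Xist-high mice minus that among Xist-low mice was -2.05 for Ifi27l2a, -1.80 for Isg15, -1.16 for Ifi35, -1.07 for Bst2, -0.92 for Oas1a, -0.74 for Irf7, -0.73 for Rtp4 and -0.56 for Xaf1. It was 0.71 for Eif2ak2, 0.70 for Parp14, 0.64 for Dtx3l, 0.61 for Herc6, 0.39 for Slfn5 and 0.34 for Stat2. The 8 genes below 0 were higher in wt mice 1 and 2 than in wt mice 3 and 4, and the 6 above 0 were lower there.

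For TKO against wt the same term had an adjusted p under 0.05 for 5 of 35 genes, against 23.1% of all genes. It rests on 1 Xist-high TKO mouse, assumed to vary like the other groups, so genotype and that mouse cannot be told apart, and the values describe that mouse. The difference was -2.38 for Ifi27l2a, -2.23 for Isg15, -1.47 for Rtp4, -1.40 for Bst2 and 0.72 for Herc6. Both comparisons share the wt mice. Xist class and the library-wide difference between the wt pairs cannot be told apart.

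Dtx3l in mouse 3 of the Zmat3-/- group (108 CPM) lay far above the other 3 mice for their spread (96.5, 98.1 and 98.1 CPM). It was the only such value in 70 groups of 4 mice examined, a rule that chance meets in about 1 in 20 groups.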

How the results depend on the processing

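Against wt, the count of called genes among the 35 changed with the covariates and the wt mice used. In Zmat3-/- against wt it was 0, and 1 with DESeq2, 8 with 1 surrogate variable (6 higher, against 37.9% of all genes), 8 with Xist level and 1 surrogate variable (4 higher, against 39.7%), 8 without wt mice 1 and 2 (7 higher, against 33% of all genes, median log2 fold change 0.22) and 24 without wt mice 3 and 4 (18 lower, against 56.1%, median -0.38). Ifi27l2a was called higher in Zmat3-/- mice with 1 surrogate variable (0.37) and with Xist level added (0.35). Without wt mice 1 and 2 the genes that turned to a called higher level were Ifi27l2a (1.33), Isg15 (0.96), Oas1a (0.93), Ifit3 (0.85) and Ifi35 (0.40). In TKO against wt it was 0, and 1 with 1 surrogate variable (against 15.4% of all genes), 1 with Xist level and 1 surrogate variable (13.4%), 0 without wt mice 1 and 2 (8.15%, median 0.29) and 15 without wt mice 3 and 4 (43.6%, median -0.35). The cause was not tested. In TKO against Zmat3-/- the count was 0 under all 17 alternatives run.

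Leaving out 1 mouse at a time gave 0 called genes and medians of -0.24 to 0.058, -0.24 to 0.13 and -0.082 to 0.18 in the 3 comparisons. With the replicate block 0 of 35 were called in each, with medians of -0.0066, -0.034 and -0.014, and the block changed no other call among the 35. It moved the calls over all genes from 103 to 12 in Zmat3-/- against wt. The block fits with TKO mice also left out wt or Zmat3-/- mouse 4, which has no TKO partner, and gave 16 and 20 calls over all genes, against 27 and 23 without that mouse and with no block. In the comparisons with TKO mice the correlations of same-numbered mice were 0.073, 0.3 and 0.41, and 0.19, 0.01 and 0.17. A pairing is not shown there either. Over all genes Zmat3-/- against wt gave 1085 calls with DESeq2, 55 without a count filter, 239 in 1 fit of all mice, 177 with an Xist covariate, 5119 with a surrogate variable and 17 to 105 without 1 mouse. TKO against wt gave 381, 61, 216, 52, 2047 and 16 to 42, and TKO against Zmat3-/- gave 73, 90, 16, 27, 35 and 20 to 34.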
